A study of Homo sapiens
Mus musculus with 24 samples.

Results

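The histone genes of the tumor cells are described here through their polyadenylated transcripts. They were taken as every human gene of the deposited table whose name starts with HIST and a digit followed by H, or with H1F, H2AF or H3F. This gave 42 of 18880 human genes, of which 33 passed the filter on low counts and were tested. The 42 were 32 genes named for the histone gene clusters (2 of H1, 12 of H2A, 9 of H2B, 2 of H3 and 7 of H4) and 10 variant genes (2 of H1, 5 of H2A and 3 of H3). All 10 variant genes and 23 of the 32 cluster genes were tested.

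The tumors were grown from MDA-MB-231 cells, a human triple-negative breast cancer line, injected under the skin at the base of the neck of female B6/Rag1KO mice at 14 weeks of age. These mice lack Rag1 and so have no mature T or B cells, while their other blood, vessel and stromal cells remain in the tumor. All groups carried the same cell line in the same strain, and treatment began in mice with tumors above 200 mm3. CTRL mice had a high-fat diet and weekly intraperitoneal saline (n = 4). Chemo mice had the high-fat diet and weekly intraperitoneal doxorubicin, a DNA-intercalating topoisomerase poison, with cyclophosphamide, an alkylating agent (n = 5). MC mice had the high-fat diet with moringa concentrate, a seed extract (n = 5), and MC + Chemo mice had both treatments (n = 6). Lean mice were the diet control (n = 4). Saline injection is named for CTRL alone, so for Lean and MC injection cannot be told apart from diet in the comparisons with CTRL. In MC + Chemo against MC, injection cannot be told apart from the drugs. The main effects and the interaction also use MC and share this limit. Each library came from the tumor of 1 mouse, and the mouse number follows the group in the names used below. The title of MC + Chemo 5 puts it in that group while another field of its labels says MC. An added column cleanup was applied to the RNA of Lean 3, MC 41 and MC 42.

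Histones pack DNA into nucleosomes, with H2A, H2B, H3 and H4 in the core and H1 on the linker. Most cluster genes are replication-dependent: they are transcribed in S phase and their messages normally end in a stem-loop bound by SLBP rather than in a poly(A) tail. A polyadenylated form of some of these messages is known from differentiated or arrested cells and from cells in which stem-loop processing is impaired. The variant genes H1F0, H2AFZ, H3F3B and others are transcribed through the cell cycle and end in poly(A) like most messages. The libraries were primed with oligo(dT) and read as 50 bp forward reads near the 3′ end, so the counts describe polyadenylated messages and leave stem-loop ends largely unseen. No nucleotide sequences are printed because none of the files used here holds them.

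Depth and identity were checked first. Human counts ran from 7796231 to 17621273 per library, and histone genes took 0.265% to 0.352% of them. Human genes took 60.1% to 74.0% of all counts in 23 libraries and 47.8% in MC 41. The genes set to be present in the line, VIM, CD44, EGFR, AXL and CAV1, had medians of 2037 to 10147 normalized counts. VIM ran from 4402 to 71918 between tumors. Of the markers set to be near 0, FOXA1 had a median of 8.77 and ESR1 of 29.0, and GATA3 at 388 was not near 0. Genes typical of host cells also drew counts in the human table. The summed level of the red cell genes HBB and HBD was 15.5 to 63.1 normalized counts in CTRL and 82.5 to 827 in MC + Chemo, and that of 6 muscle genes was 15.5 to 123 in CTRL and 111 to 5474 in MC + Chemo. The leukocyte genes PTPRC, CD68 and CSF1R summed to 338 to 523 in CTRL and 146 to 419 in MC + Chemo. The adipocyte genes ADIPOQ, PLIN1 and FABP4 summed to 0 to 30.9 and 3.06 to 168, and the endothelial genes PECAM1, CDH5 and KDR to 56.3 to 93.2 and 53.9 to 102. In Chemo and MC the red cell sum was 48.6 to 315 and 53.2 to 312, the muscle sum 98.5 to 287 and 82.5 to 3842, the leukocyte sum 305 to 688 and 143 to 392, the adipocyte sum 2.86 to 22.4 and 4.09 to 135, and the endothelial sum 23.7 to 58.2 and 40.1 to 123. Of the muscle genes, MB had a median of 106 over the 24 tumors and the other 5 had medians of 1.12 to 6.89. Whether these counts came from host or tumor cells, and their part in the differences below, was not tested. In bulk tumors, fewer cells of a type and less RNA per cell cannot be told apart.

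Variant genes made up most of the polyadenylated histone signal. Values below are normalized counts, meaning counts divided by the library's size factor. They count 3′ ends and are not divided by transcript length. H3F3B, which encodes the replication-independent histone H3.3, had the highest mean of the 42 genes at 10217 over the 24 tumors and held 33.9% of all histone counts. H2AFZ, the gene of the H2A.Z variant found at promoters, followed with 6555 and 21.8%. H2AFV, a second H2A.Z gene, and H2AFY, the gene of the transcriptionally repressive macroH2A, had similar means of 2427 and 2343. H1F0, a linker histone that accumulates in non-dividing cells, had a mean of 1892, and H1FX, another linker variant, one of 1161. The DNA damage sensor histone gene H2AFX and its relative H2AFJ were lower, at 436 and 380. H3F3C, a primate H3.3-like gene, had 166.

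The H3.3 pair was very unequal, since H3F3A had a mean of only 29.9, although both genes encode the same protein. H3F3A counts totalled 766 in the human table, while its murine namesake in the same tumors had 4167 in the murine table. How reads that match several gene copies or both species were counted is not given in the sources used here, so the low H3F3A level is uncertain, as are the values of other near-identical histone copies.

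Among cluster genes, 2 stood far above the rest. HIST1H1C, the linker histone H1.2 gene, had a mean of 1675, and HIST1H4C, one of the many genes for histone H4, had 1288. Together with HIST3H2A (479), HIST1H2AC (331), HIST1H2BD (316) and HIST1H1E (121) they were the only cluster genes with a mean above 100. HIST1H2AI (63.6), HIST2H2BE (53.4), HIST2H2AC (39.1) and HIST1H2BC (35.9) were next, and all others lay below 20. The cluster H3 genes were barely seen, with 16.3 for HIST1H3H and 9.23 for HIST1H3A. The 9 genes left out by the filter (HIST4H4, HIST2H2AB, HIST1H2BA, HIST2H2BF, HIST1H2BO, HIST1H2AL, HIST1H4J, HIST1H4L and HIST1H2AE) had means of 3.03 to 5.17.

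**Figure D1:**
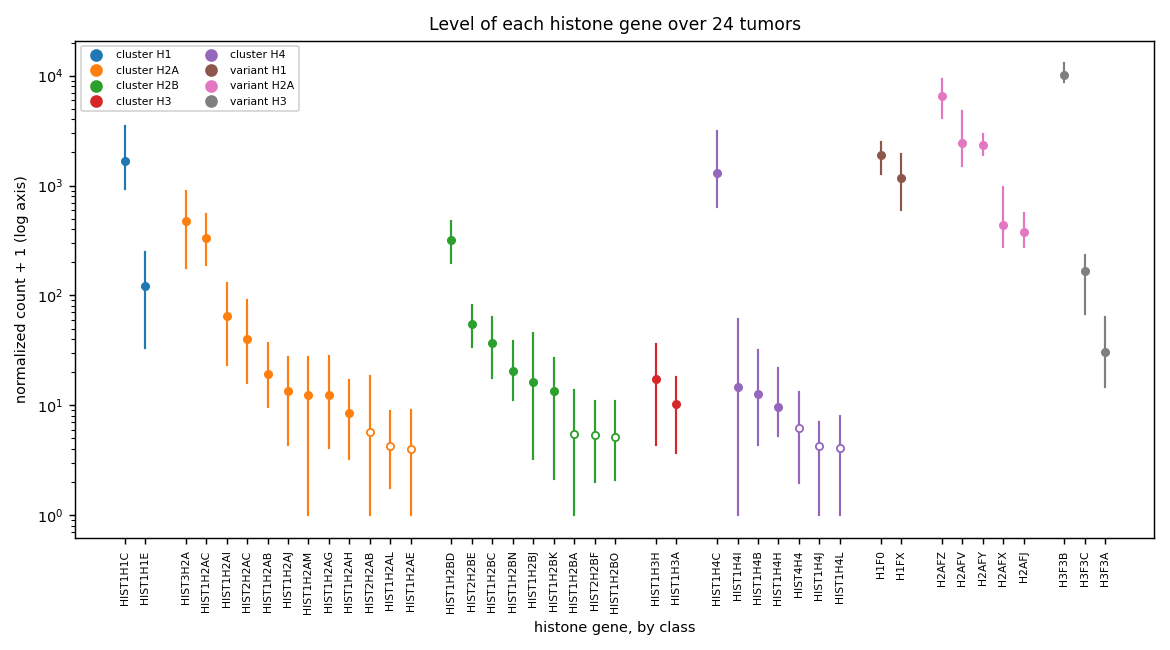
Mean normalized count plus 1 (points, log axis) of the 42 histone genes over 24 tumors, with lines from the lowest to the highest tumor, ordered by class and mean. H3F3B and H2AFZ lead, HIST1H1C and HIST1H4C stand above the other cluster genes, and open points mark the 9 genes that were not tested.

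The share of cluster genes in the histone counts was 18.7% in CTRL, 17.4% in Lean, 15.3% in MC, 14.4% in Chemo and 12.1% in MC + Chemo. On the CPM scale, counts scaled to a common human total, the cluster sum averaged 589 ± 200 for CTRL (SD, n = 4) and 515 ± 123 for Lean (n = 4). It was 425 ± 112 for MC (n = 5), 412 ± 49.2 for Chemo (n = 5) and 346 ± 46.7 for MC + Chemo (n = 6). The 4 CTRL tumors lay at 804 (CTRL 17), 407 (CTRL 31), 714 (CTRL 44) and 430 (CTRL 70) CPM. CTRL 17 and CTRL 44 stood far above the highest MC + Chemo tumor, at 411 CPM, while CTRL 70 was close to it and CTRL 31 was below it. Without HIST1H1C and HIST1H4C the sum of the other 30 cluster genes was 158 ± 18.3 CPM in CTRL and 149 ± 12.7 in MC + Chemo, so most of the spread in the cluster sum came with those 2 genes.

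By class, the cluster H4 sum was 212 ± 106 CPM for CTRL, 144 ± 45.0 for Lean, 128 ± 52.8 for MC, 109 ± 36.5 for Chemo and 81.7 ± 19.7 for MC + Chemo. The cluster H1 sum was 239 ± 92.1, 217 ± 50.6, 172 ± 53.6, 142 ± 21.2 and 126 ± 33.5 CPM in the same order. Both classes had their highest mean in CTRL and their lowest in MC + Chemo. The cluster H2B sum was 41.5 ± 6.80, 38.9 ± 5.56, 38.1 ± 7.06, 48.7 ± 9.50 and 53.0 ± 3.55 CPM in that order, with its highest mean in MC + Chemo. The cluster H2A sum was 92.9 ± 8.77, 113 ± 27.2, 84.6 ± 10.0, 109 ± 27.0 and 82.8 ± 13.1 CPM, above CTRL in Lean and Chemo and below it in MC and MC + Chemo. The variant sums for CTRL and MC + Chemo were 1022 ± 34.5 and 1030 ± 78.5 CPM for H3, 1266 ± 190 and 1189 ± 122 for H2A, and 268 ± 73.5 and 300.1 ± 17.1 for H1. The variant H3 sum in MC was 965 ± 55.4. These sums are descriptions and were not tested.

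The comparison of MC + Chemo with CTRL asks how tumors under both treatments differed from those under neither. A gene was called when its edgeR adjusted p was below 0.05, its mean normalized count above 30 and its fold above 1.5. By these criteria, 2 of the 33 histone genes were called: HIST1H4C was lower and HIST1H2BD higher in MC + Chemo. Among all 16434 genes tested, 1.6% were called, 0.456% as higher and 1.14% as lower. In all, 10 of the 33 (30.3%) had an unadjusted edgeR p under 0.05, against 22.7% of all genes. The 10 were 8 cluster genes, of which 7 were lower, and 2 variant genes, both higher. In all, 3 were higher (9.19% of all genes) and 7 lower (13.5%). The log2 fold change was above 0 for 11 of the 33 (47.5% of all genes) and below 0 for 22, with a median of -0.27 beside -0.02 over all genes tested. Without CTRL 44 this median was -0.04. Neither gene was called (0 of 33) when only these 2 groups were fitted or when MC + Chemo 5 was counted as MC. The share of all genes called in those fits was not counted, so a loss particular to these genes cannot be told from a general one.

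HIST1H4C had 3000 (CTRL 17), 1154 (CTRL 31), 3100 (CTRL 44) and 1197 (CTRL 70) normalized counts in the controls. In MC + Chemo it ran from 643 over a median of 746 to 1167. The groups overlapped, since CTRL 31 was just below the highest MC + Chemo tumor, and the CTRL values formed a high and a low pair. The log2 fold change was -1.35 with an SE of 0.31, a fold of 0.392 (edgeR adjusted p = 0.0389, n = 6 and 4). The exact two-sided permutation p was 0.00952, where the smallest possible was 0.00476. Leaving out each tumor in turn gave a log2 fold change of -1.55 to -1.07, and the adjusted p stayed below 0.05 in 3 of 10 runs (without CTRL 31, CTRL 70 or MC + Chemo 25). In those runs 6.92%, 5.28% and 2.17% of all genes were called. The adjusted p was at most 0.145 in the others, CTRL 17 and CTRL 44 included, where 0% to 0.644% of all genes were called.

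HIST1H2BD, an H2B gene known for giving a polyadenylated message, had 293 (CTRL 17), 227 (CTRL 31), 257 (CTRL 44) and 279 (CTRL 70) normalized counts in CTRL and ran from 352 over 411 (median) to 472 in MC + Chemo. All MC + Chemo tumors were above all CTRL tumors, a separation seen in this direction for 2.7% of the 16089 genes at or above the lowest mean of the histone genes tested. Its log2 fold change was 0.63 with an SE of 0.16, or 1.55-fold (edgeR adjusted p = 0.0498, n = 6 and 4). The exact two-sided permutation p was 0.00476, the smallest this design can give. The adjusted p stayed below 0.05 in 1 of 10 runs that left out a tumor (without CTRL 70), while the log2 fold change stayed between 0.57 and 0.68.

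The cluster linker genes HIST1H1E and HIST1H1C had values below 0 and were not called by edgeR. HIST1H1E, the H1.4 gene, had 249, 141, 154 and 109 normalized counts in CTRL 17, 31, 44 and 70, and 32.3 to 102 (median 78.5) in MC + Chemo. All MC + Chemo tumors were below all CTRL tumors, which 2.64% of genes also showed. The log2 fold change was -1.14 with an SE of 0.31 (edgeR adjusted p = 0.0577; DESeq2 adjusted p = 0.0199). HIST1H1C had 3475, 1585, 2558 and 1510 in the same CTRL tumors and 928 to 1791 (median 1272) in MC + Chemo, so the groups overlapped. Its log2 fold change was -0.86 with an SE of 0.25 (edgeR adjusted p = 0.0621; DESeq2 adjusted p = 0.0310). DESeq2 called 4 of the histone genes, these 2 and HIST1H4C as lower and HIST1H2BD as higher, where it called 4.46% of 17770 genes (2.5% lower, 1.96% higher).

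The variant linker gene H1F0 had values in the opposite direction to the cluster H1 genes. It had 1272, 1811, 1834 and 1605 normalized counts in CTRL 17, 31, 44 and 70 and 1828 to 2420 (median 2141) in MC + Chemo, with overlap only between the highest CTRL and the lowest MC + Chemo tumor. The log2 fold change was 0.37 with an SE of 0.13 (edgeR adjusted p = 0.104). CTRL 17, the highest tumor for HIST1H1C and HIST1H1E, was the lowest for H1F0. H2AFJ, an H2A variant reported to accumulate in senescent cells, had 303 to 440 in 3 CTRL tumors and 274 in CTRL 17, and 359 to 557 in MC + Chemo (log2 fold change 0.35, SE 0.15; edgeR adjusted p = 0.175).

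The remaining genes with an unadjusted p under 0.05 were low-count cluster genes below 0 on the log2 scale. HIST1H2AJ had 11.2 to 26.8 normalized counts in CTRL and 7.82 to 11.2 in MC + Chemo, with no overlap but almost touching (log2 fold change -0.92, SE 0.33, edgeR adjusted p = 0.106). Of the 33 histone genes, 1 separated the groups fully as higher and 2 as lower, beside 2.7% and 2.64% of genes. The HIST1H2BJ fold change was -1.15 (SE 0.40) on the log2 scale, with a CTRL range of 9.82 to 44.7 counts around the MC + Chemo range of 10.8 to 18.8. HIST1H4B and HIST1H2AG had -0.99 (SE 0.41) and -0.94 (SE 0.40). At these levels a few reads set the value.

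**Figure D2:**
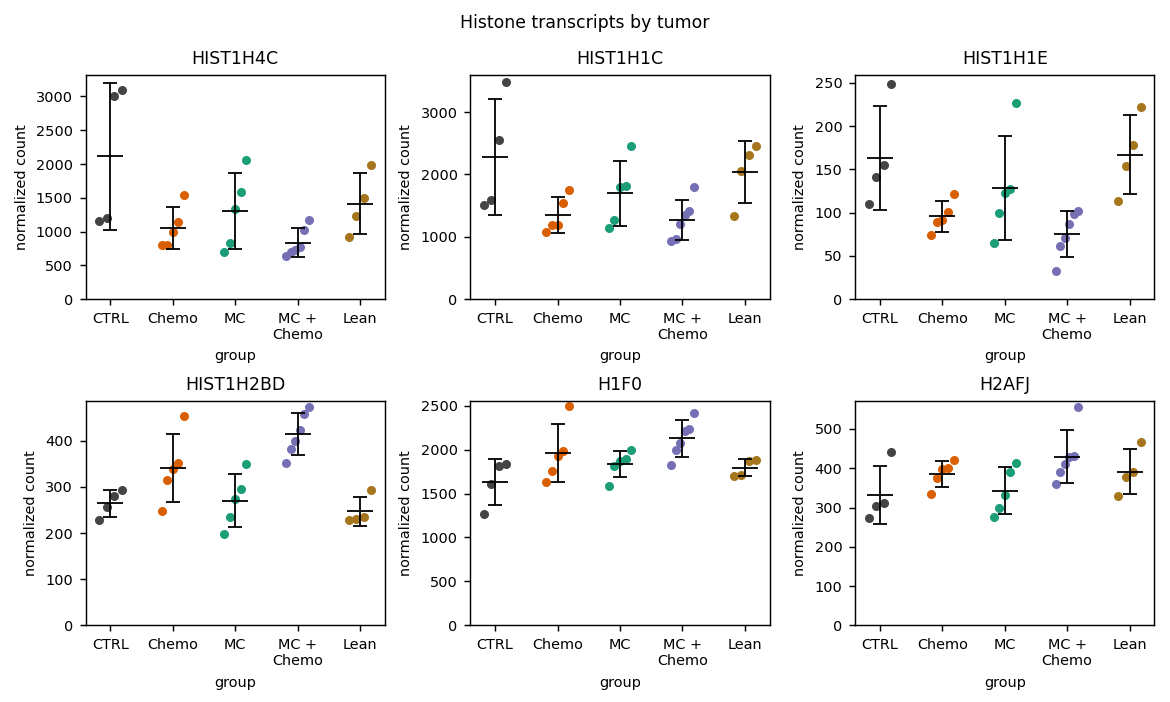
Normalized counts of 6 histone genes in each tumor (points) by group, with the group mean and SD (black). HIST1H4C, HIST1H1C and HIST1H1E had their lowest means in MC + Chemo, whereas HIST1H2BD, H1F0 and H2AFJ had their highest means there; the 4 CTRL tumors spread from 1154 to 3100 for HIST1H4C.

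Chemo against CTRL asks for the change under doxorubicin and cyclophosphamide alone. None of the 33 genes was called (0 by edgeR, where 0% of all genes were called, and 0 by DESeq2, where 3.02% were). At an unadjusted edgeR p under 0.05 there were 8 (24.2%, against 18.2% of all genes), all of them cluster genes. Of these, 7 were lower, against 10.4% of all genes, and 1 higher, against 7.84%. HIST1H2AJ was at -1.19 on the log2 scale (SE 0.35; edgeR adjusted p = 0.107) and HIST1H4C at -1.02 (SE 0.33; edgeR adjusted p = 0.130). HIST1H4C ran from 795 over 991 to 1535 in Chemo and overlapped with the lower CTRL pair. The linker genes HIST1H1E and HIST1H1C were at -0.78 (SE 0.33) and -0.77 (SE 0.26), and HIST1H2BD at 0.36 (SE 0.17), with edgeR adjusted p from 0.140 to 0.270. No histone gene separated Chemo fully from CTRL (0 of 33), which 1.91% of genes did as higher and 1.34% as lower. Without CTRL 31, 2 genes were called, where edgeR called 6.99% of all genes, and without CTRL 70, 1, where it called 3.69%, so these counts are at the background.

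MC against CTRL asks for the change under moringa concentrate without chemotherapy, with the limit on injection given above. Again 0 of 33 were called by edgeR (0% of all genes) or DESeq2 (0.0704%), and 2 (6.06%, against 10.7% of all genes) had an unadjusted edgeR p under 0.05, both lower (5.93% of all genes, with 4.79% higher). These were HIST1H2BJ at -1.34 on the log2 scale (SE 0.43; edgeR adjusted p = 0.406) and HIST1H4C at -0.71 (SE 0.33; edgeR adjusted p = 0.456). HIST1H4C ran from 700 over 1328 to 2066 in MC. HIST1H2BD was at 0.03 (SE 0.17), with 198 to 349 counts in MC around the CTRL range. HIST1H2AM, a low-count H2A gene, had -1.09 (SE 0.63). The 10 variant genes lay between -0.41 (H2AFX) and 0.16 (H1F0), none with an unadjusted p under 0.05.

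MC + Chemo against MC asks what chemotherapy, with its injections, added in moringa-fed mice. MC + Chemo against Chemo asks what moringa added under chemotherapy. Of the 33 genes, 0 were called in either by edgeR, which called 0% of all genes in both, or by DESeq2, which called 0.0265% against MC and 0.0506% against Chemo. Against MC, 6 of 33 (18.2%) had an unadjusted edgeR p under 0.05 beside 7.95% of all genes. They were 3 higher (3.3% of all genes) and 3 lower (4.64%). HIST1H2BD was higher in every MC + Chemo tumor (352 to 472) than in any MC tumor (198 to 349), a separation that 0.827% of genes showed in this direction. Its log2 fold change was 0.60 with an SE of 0.15 (edgeR adjusted p = 0.597, DESeq2 adjusted p = 0.133), and the exact two-sided permutation p was 0.00216, the smallest possible with 6 against 5. HIST1H1E was at -0.78 (SE 0.30), HIST1H4I at -1.51 (SE 0.62) and HIST1H4C at -0.65 (SE 0.30). HIST1H4I was at 60.0 in MC 41 alone and at 0 to 14.7 in MC + Chemo, and without MC 41 its value was -0.76.

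Against Chemo, 1 of 33 (3.03%) had an unadjusted edgeR p under 0.05, beside 10.4% of all genes (7.13% lower, 3.29% higher). This was HIST1H2AI, an H2A gene, with 27.9 to 127 counts in Chemo and 22.2 to 63.6 in MC + Chemo (log2 fold change -0.93, SE 0.34; edgeR adjusted p = 0.366). HIST1H2BK, an H2B gene also known for a polyadenylated message, was at 0.97 (SE 0.47), with medians of 7.83 counts in Chemo and 19.9 in MC + Chemo. HIST1H2BC was at -0.63 (SE 0.34). HIST1H4C and HIST1H2BD were at -0.34 (SE 0.30) and 0.27 (SE 0.15), so neither of the genes called against CTRL differed from Chemo beyond the spread between tumors.

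The chemotherapy main effect, the mean of the effects with and without moringa, used all 20 tumors on the high-fat diet. Here edgeR called 0 of 33 and DESeq2 2, HIST1H4C and HIST1H1E as lower, while 0% and 1.63% of all genes were called (0.998% lower and 0.634% higher by DESeq2). At an unadjusted edgeR p under 0.05 there were 10 (30.3%, against 17.6%), of which 4 were higher (7.65% of all genes) and 6 lower (9.93%). The higher genes were HIST1H2BD at 0.48 (SE 0.11; edgeR adjusted p = 0.0877), HIST2H2BE at 0.44 (SE 0.17), H2AFJ at 0.26 (SE 0.11) and H1F0 at 0.23 (SE 0.09). The lower genes were led by HIST1H4C at -0.83 (SE 0.22; edgeR adjusted p = 0.108), HIST1H2AJ at -0.82 (SE 0.24), HIST1H1E at -0.78 (SE 0.22) and HIST1H1C at -0.60 (SE 0.17). HIST2H2BE, another H2B gene with a known poly(A) site, had 38.6 to 48.3 counts in CTRL, 32.8 to 81.4 in Chemo and 39.9 to 74.3 in MC + Chemo. The comparisons in this and the paragraphs above share control and treated tumors and are not independent.

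The moringa main effect and the interaction (whether the effect of one treatment depended on the other) each had 0 of 33 called by either tool and 2 with an unadjusted edgeR p under 0.05 (6.06%, against 11.4% and 9.74% of all genes). DESeq2 called 0.212% and 0.0053% of all genes, and edgeR 0%. For moringa these were HIST1H2BJ at -0.74 (SE 0.29) and HIST1H4C at -0.52 (SE 0.22), both lower (7.16% of all genes, with 4.22% higher), with edgeR adjusted p of 0.341 and 0.378. For the interaction they were HIST1H2BK at 1.83 (SE 0.70; 5.81% of all genes passed above 0) and HIST1H2AI at -1.08 (SE 0.51; 3.93% passed below 0), both with an edgeR adjusted p of 0.511. The interaction was 0.37 (SE 0.45) for HIST1H4C and 0.25 (SE 0.23) for HIST1H2BD.

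**Figure D3:**
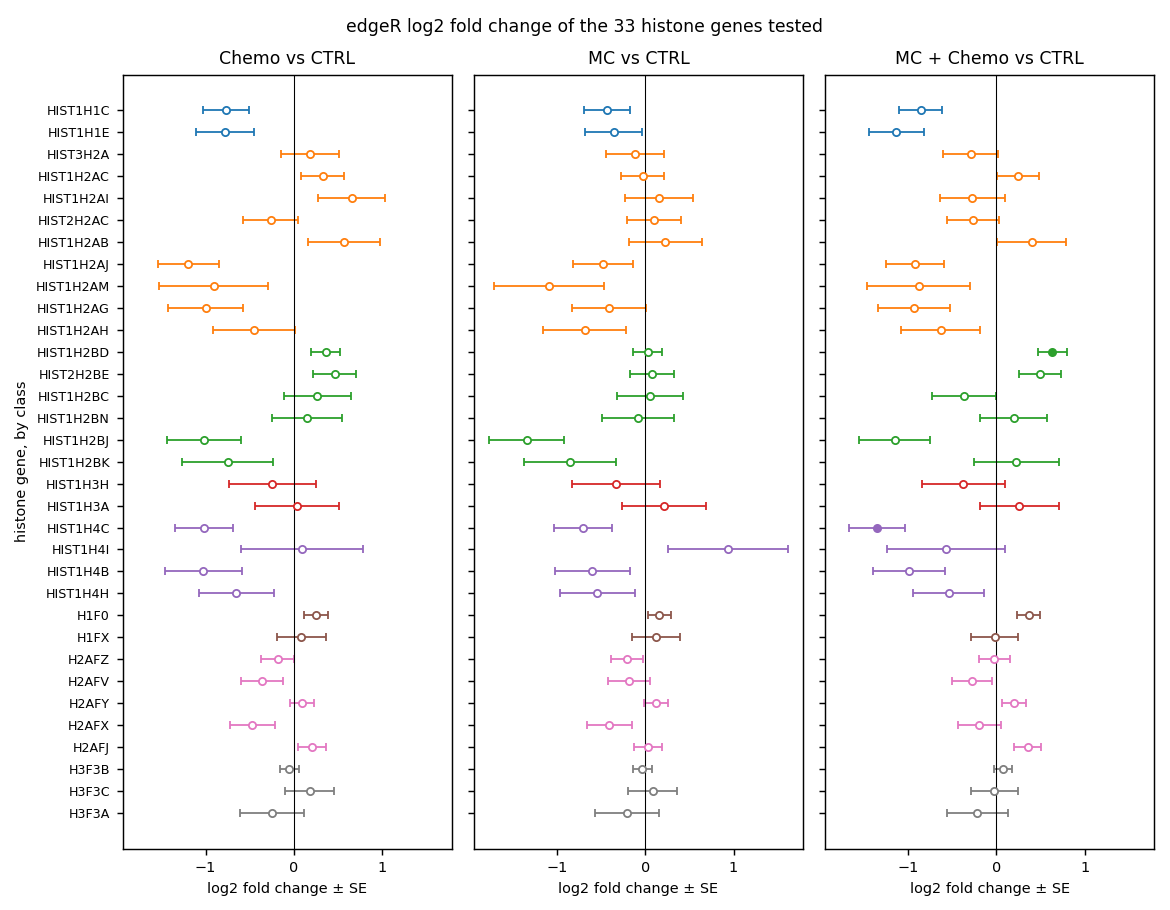
Log2 fold change against CTRL with its SE (edgeR) for the 33 histone genes tested, by class (colour) and mean level, in Chemo, MC and MC + Chemo. Filled points mark the 2 called genes, HIST1H4C at -1.35 and HIST1H2BD at 0.63 in MC + Chemo, where the 10 variant genes lie between -0.28 and 0.37.

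Lean against CTRL asks for the effect of the diet, which cannot be told apart from that of saline injection. Lean was fitted with all 24 tumors. Here 0 of 33 were called by edgeR (0% of all genes) or DESeq2 (0.0053%), and 3 (2 higher, 1 lower) had an unadjusted edgeR p under 0.05, beside 7.08% of all 16588 genes (2.77% higher, 4.31% lower). HIST1H2AI had 68.8 to 129 counts in Lean and 37.1 to 65.0 in CTRL. The groups did not overlap, as for 1.12% of genes in this direction, and the exact two-sided permutation p was 0.0286, the smallest possible with 4 against 4 (log2 fold change 0.98, SE 0.39; edgeR adjusted p = 0.685). HIST2H2AC was at 0.78 (SE 0.31) and HIST1H2BJ at -1.70 (SE 0.49), both also with an edgeR adjusted p of 0.685. HIST1H4C had 1226, 925, 1987 and 1501 in Lean 3, 21, 24 and 54, with 3 of the 4 between the low and the high CTRL pair (log2 fold change -0.59, SE 0.35). HIST1H2BD at 229 to 293 had nearly the CTRL range.

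Neighbouring cluster genes had log2 fold changes of either sign. In RefSeq gene order (GRCh38.p14, used for names and order only, with all 42 genes matched), 26 of the genes lie on chromosome 6 in the HIST1 cluster. There HIST1H1C, HIST1H4C, HIST1H2BC, HIST1H2AC, HIST1H1E and HIST1H2BD follow each other as measured histone genes, with 2 other annotated genes between the first pair, 1 between HIST1H4C and HIST1H2BC, and 0 between the others. HIST1H2BC was matched to 2 RefSeq entries. This stretch holds both called genes and both cluster H1 genes. It was not set in advance, and the rest of the cluster is not shown in this way. In MC + Chemo against CTRL the 6 log2 fold changes in that order were -0.86, -1.35, -0.37, 0.25, -1.14 and 0.63. The direct neighbours HIST1H1E and HIST1H2BD thus had opposite signs, both with non-overlapping groups, as for 2.64% of genes as lower and 2.7% as higher.

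**Figure D4:**
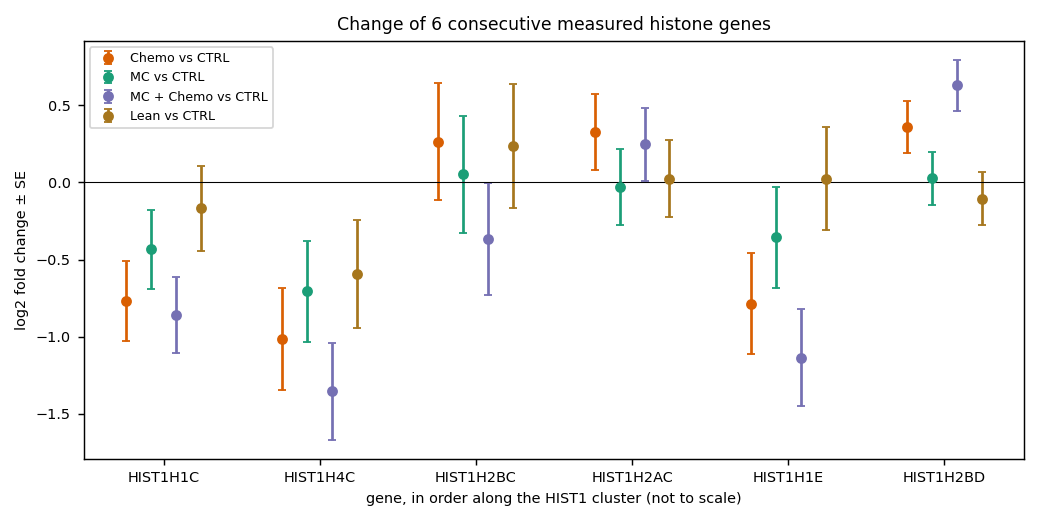
Log2 fold change against CTRL with its SE (edgeR) of 6 histone genes in their order along the cluster, for Chemo, MC, MC + Chemo and Lean. In MC + Chemo, HIST1H1E at -1.14 and its neighbour HIST1H2BD at 0.63 lie on opposite sides of 0.

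Ratios of 2 transcripts within a tumor do not depend on the library's scaling. These pairs were chosen after their values were seen and are given as descriptions. The log2 ratio of HIST1H4C to HIST1H2BD counts was 2.10 to 3.59 in CTRL, 2.02 to 2.76 in Lean, 1.57 to 2.91 in MC, 1.243 to 2.63 in Chemo and 0.44 to 1.55 in MC + Chemo. Every MC + Chemo tumor was below every CTRL, Lean and MC tumor, but MC + Chemo and MC nearly met, at 1.55 and 1.57. Chemo overlapped with every other group. The log2 ratio of HIST1H1C to H1F0 was -0.19 to 1.45 in CTRL and -1.38 to -0.21 in MC + Chemo. That of HIST1H1E to H1F0 was -3.87 to -2.35 and -6.23 to -4.30. CTRL and MC + Chemo did not overlap in either linker ratio, but in the former they nearly met, at -0.19 and -0.21. For HIST1H1C to H1F0 the Lean (-0.35 to 0.43), MC (-0.72 to 0.30) and Chemo (-0.84 to -0.19) tumors all overlapped with MC + Chemo. For HIST1H1E to H1F0, MC (-4.87 to -3.13) and Chemo (-4.63 to -3.75) overlapped with it and Lean (-3.90 to -2.95) did not. How many other gene pairs separate groups like this was not tested.

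**Figure D5:**
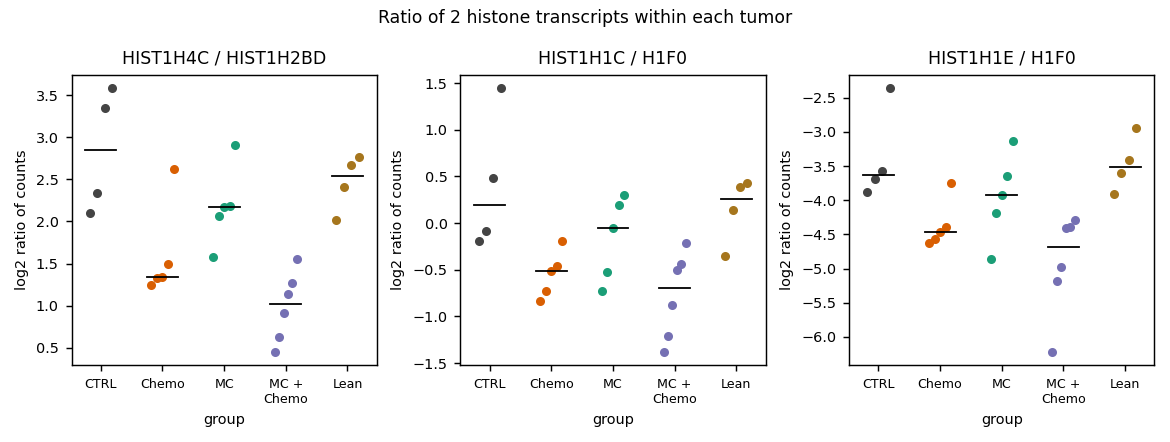
Log2 ratio of the counts of 2 histone genes in each tumor (points) with the group median (line). For HIST1H4C over HIST1H2BD the MC + Chemo tumors lie at 0.44 to 1.55 and the CTRL tumors at 2.10 to 3.59.

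Few genes of histone supply and processing passed a test. The 25 S-phase genes of the list rise with the fraction of cells in DNA replication. In MC + Chemo against CTRL, 11 of the 25 were above 0 (44%, against 47.5% of all genes) and 14 below. Their median was -0.03 on the log2 scale, beside -0.02 over all genes, and 0 were called, against 1.6% of all genes. The values of the 25 ranged from -0.52 to 0.67. Among those near 0, PCNA, the replication clamp, was at -0.02 (SE 0.22) and RRM2, a ribonucleotide reductase subunit, at -0.03 (SE 0.19). In Chemo, 22 of the 25 were below 0 and 12% above, against 47.7% of all genes above. Their median there was -0.15, beside -0.02 over all genes. None was called (0), where edgeR called 0% of all genes. Of 25 genes of stem-loop and 3′ end processing, 12 were above 0 in MC + Chemo (48%, against 47.5% of all genes) and 13 below. Of these 25, 0 were called, against 1.6% of all genes. SLBP was at 0.13 (SE 0.18), LSM11, a subunit of the U7 particle that cuts histone messages, at -0.39 (SE 0.19), and NPAT, the activator of replication-dependent histone genes, at -0.27 (SE 0.18).

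Of 24 histone chaperones and exchange factors, 5 were above 0 in MC + Chemo against CTRL (20.8%, against 47.5% of all genes) and 19 below. Their median was -0.10, beside -0.02 over all genes. In this list 1 was called, as higher (4.17%, against 0.456% of all genes, or 1.6% in either direction). This was SRCAP, the ATPase that deposits H2A.Z, with 187 to 398 normalized counts in CTRL and 404 to 609 in MC + Chemo. The groups did not overlap, as for 2.7% of genes in this direction. Its log2 fold change was 0.66 with an SE of 0.17 (edgeR adjusted p = 0.0483). In Chemo it was at 0.64 with an SE of 0.18 (edgeR adjusted p = 0.0955). There DESeq2 called 1 of the 24 listed genes, as higher, beside 3.02% of all genes, and edgeR called 0% of all genes. For MC + Chemo against CTRL, leaving out a tumor kept the SRCAP adjusted p below 0.05 in 2 of 10 runs (without CTRL 31 or CTRL 70), with 0.158 at most. The H2A.Z genes themselves were at -0.03 (SE 0.18) for H2AFZ and -0.28 (SE 0.23) for H2AFV. HJURP, the chaperone of the centromeric histone, was at -0.56 (SE 0.21; edgeR adjusted p = 0.128), and CENPA, that histone, at -0.27 (SE 0.28).

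The murine counts of the same tumors give a view of host histone messages. The murine gene Hist1h4c totalled 790 counts over the 24 libraries, 2.45% of the human HIST1H4C total. Its mean was 56.9 ± 28.0 normalized counts for CTRL, 32.9 ± 14.7 for MC, 29.4 ± 10.4 for MC + Chemo, 22.5 ± 16.3 for Chemo and 21.4 ± 12.2 for Lean (SD). It was thus highest in CTRL, as was the human gene. Hist1h1e had 79.6 ± 19.99 in CTRL and 41.6 ± 20.02 in MC + Chemo, at 58.8% of the human total, while Hist1h1c had 378 ± 67.3 and 420 ± 106, and H1f0 476 ± 5.11 and 474 ± 83.0. Some murine genes had more counts than the human gene of the same name. Their totals were 10425 against 884 for HIST1H2BC, 630 against 326 for HIST1H4I and 1204 against 292 for HIST1H4B. Whether reads shared between the species enter the human values of these genes, HIST1H4C or HIST1H1E was not tested. HIST1H2BD has no murine gene of the same name in the table.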

How the data were processed

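Tumor RNA of 24 mice was measured by QuantSeq 3′ sequencing. The authors aligned reads with BlueBee software, and the submitters' processing notes name DESeq2 1.22.2 and GRCm38. The human build, counter, strand setting and the handling of reads matching several genes or both species are not given in the sources used here. The deposited tables hold raw counts per gene and a normalized signal, the authors' counts divided by DESeq2 size factors. Human counts were tested with the edgeR 4.0.16 quasi-likelihood F test (limma 3.58.1, R 4.3.3): TMM scaling, filterByExpr, group means over 20 libraries (24 for Lean), and Benjamini-Hochberg adjustment over all genes tested. DESeq2 1.42.0 was the alternative. Single genes were also compared by two-sided exact permutation of mean log2(normalized count + 1). The chain was tested on simulated data. Of 47 pairs of libraries within groups, 0 were identical.

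The members and lists were chosen with earlier results of these data known. Genes named are those called by edgeR in any comparison, the 2 with the highest mean in each class, the 3 with the lowest p in each comparison, and HIST1H2BD and HIST1H2BK. Members outside that rule (H2AFY, H2AFX, H2AFJ, H3F3A, HIST2H2AC where not among the 3, HIST1H4B, HIST1H2AG and the untested genes) and the list genes given by name were chosen after their values were seen. Alternatives were another tool, other size factors, no filter, the compared groups alone or all groups in the fit, MC + Chemo 5 counted as MC, no libraries with RNA cleanup, the adjusted p alone, and each tumor left out in turn. The result of 1 gene of the other lists is not reported here.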

Additional observations from a re-analysis of the deposited data

Results flagged for a closer look

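Over the 23 genes checked, 3 of 115 groups held a tumor whose gap to the nearest other tumor was large for the group's range (Dixon's test). Chance gives about 1 in 20 groups, more than were found. H1FX was 1938 normalized counts in Chemo 33, where the other Chemo tumors had 771 to 1084. In Lean 24, HIST1H2BD was 293, where the others had 229 to 235, and HIST3H2A was 898, where the others had 467 to 527. Lean 24 also had the highest histone share of the Lean tumors, at 0.340% of human counts.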

How the results depend on the processing

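No paired analysis was possible because the mouse numbers do not repeat between groups. No called value changed sign under the alternatives run. For MC + Chemo against CTRL, 2 histone genes were called, 4 with DESeq2, 0 when only those 2 groups were fitted, 0 with MC + Chemo 5 counted as MC, 1 without the libraries with RNA cleanup, and 0 to 4 when a tumor was left out (0 in the runs lacking CTRL 17, CTRL 44 or MC + Chemo 5, 43, 47, 50 or 52, 3 in those lacking CTRL 31 or MC + Chemo 25, and 4 in that lacking CTRL 70). In the runs lacking CTRL 31, MC + Chemo 25 and CTRL 70, edgeR called 6.92%, 2.17% and 5.28% of all genes, against 1.6% with all tumors. Dropping CTRL 17 left 0 of all genes called by edgeR in this comparison, as did dropping CTRL 44. The same held for the run lacking MC + Chemo 52 and for that lacking MC + Chemo 47. The share of all genes called was 0.417% when MC + Chemo 43 was dropped, 0.489% for MC + Chemo 50 and 0.644% for MC + Chemo 5. For Chemo against CTRL the count was 0, and 0 to 2 when a tumor was left out (1 without CTRL 70, 2 without CTRL 31, beside 3.69% and 6.99% of all genes). For the chemotherapy main effect it was 0, 2 with DESeq2, and 0 to 3 when a tumor was left out (2 without CTRL 31, 3 without CTRL 70, beside 2.56% and 1.77% of all genes). The other 164 counts equalled the main count or were within 1.5 times of it. Most of them were 0 beside a main count of 0, in comparisons where edgeR called 0% of all genes with all tumors. The adjusted p of HIST1H4C in MC + Chemo against CTRL was 0.205 with the 2 groups alone and 0.0527 with MC + Chemo 5 as MC, with log2 fold changes of -1.36 and -1.31. That of HIST1H2BD was 0.205, 0.0626 and, without the cleanup libraries, 0.0702, with log2 fold changes of 0.62, 0.65 and 0.63. Over all single genes and alternatives, 484 values kept their side of the threshold, 32 lost it and 16 gained it. Most of the 484 were values that did not pass with all tumors either. All 32 losses were of HIST1H4C, HIST1H2BD and SRCAP in MC + Chemo against CTRL, the only values that passed with all tumors. Of 10 runs that left out a tumor, these genes failed in 7, 9 and 8. The cause of these changes was not tested, beyond fewer tumors in the runs that leave some out. The median over histone genes in Chemo against CTRL was -0.19, and 0.02 without CTRL 44, an alternative for medians chosen after seeing the data. SRCAP in MC + Chemo against CTRL, also examined after seeing the data, had an adjusted p of 0.0522 with no filter, 0.211 with the 2 groups alone and 0.0690 without the cleanup libraries. Depth limits the genes below about 20 normalized counts.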
